A study of Penaeus vannamei with 11 samples.

Results

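RNA interference genes were followed in hemocytes, the circulating blood cells, of the Pacific white shrimp Penaeus vannamei. Members were the genes whose first deposited description contained argonaute, dicer, piwi, TARBP, RISC-loading or ribonuclease 3. That rule used names alone and found 17 of the 18803 genes in the table. Of the 17, 15 were RNA interference genes and 2 were matched by name only. Those 2 were LOC113807498, named as the probable methyltransferase TARBP1, and LOC113817842, named as putative ERI1 exoribonuclease 3. The 11 libraries came from 3 control females, 2 control males, 3 females and 3 males given the agent Vibrio parahaemolyticus, a bacterial pathogen of shrimp. The control males are numbered 2 and 3. All libraries were made from Trizol-extracted total RNA of cells spun out of hemolymph, and the labels give no strain, age, dose, route or time. Nothing in the labels says that the libraries of a group came from separate animals, so the p-values measure the spread between these samples, which may be technical.

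RNA interference silences transcripts that match a small RNA. Ribonuclease III enzymes cut the small RNAs from longer precursors: Drosha and Dicer-1 make microRNAs in insects, and Dicer-2 cuts double-stranded RNA into small interfering RNAs. A double-stranded RNA-binding partner helps to load the product into an argonaute protein, which then finds and silences the target. PIWI proteins are the argonaute branch that works with piRNAs, mainly in the germline. In shrimp the pathway is best known for its part in antiviral defence, and the agent here was a bacterium.

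The libraries held 39733829 to 53837438 counts and 13210 to 15138 genes with a count. Counts of the 17 members summed to 0.0636 to 0.0802% of a library. All 36 hemocyte markers had a count somewhere, and they summed to 3.59 to 7.22% of the counts in control females, 3.26 to 3.65% in control males, 3.14 to 3.76% in Vibrio females and 3.73 to 4.92% in Vibrio males. Of 106 hepatopancreas markers (genes of the digestive gland), 103 had a count. Their sum ran from 0.030 to 0.179% in control females, 0.0715 to 0.274% in control males, 0.0259 to 0.203% in Vibrio females and 0.0256 to 0.0613% in Vibrio males. Muscle markers, 67 of 68 with a count, summed to 0.149 to 0.363% over all libraries. In bulk RNA, fewer cells of a type and less RNA per cell cannot be told apart.

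Levels are given as deposited FPKM, which scales fragments by transcript length and by sequencing depth. A comparison between genes thus rests on the length used for each gene model. Of the 17 members, 9 had a mean of at least 1 FPKM over the 11 libraries and 8 were below it. The hemocytes' RNA interference genes were spread over a wide range of levels. In FPKM the loading partner was far above every enzyme, a pair of argonaute genes followed, and the ribonuclease III genes and AGO1 came lower still.

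**Figure D1:**
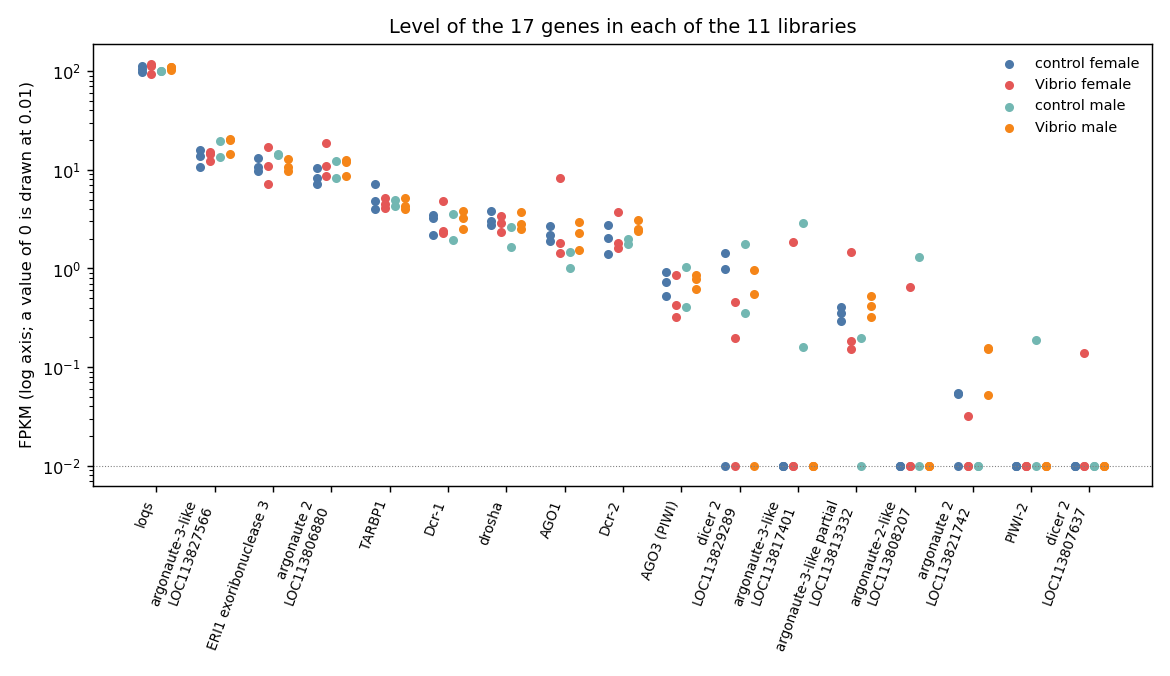
FPKM of each of the 17 genes (log axis) in each of the 11 libraries, with 1 point per library and the 4 groups side by side. loqs sits near 106 FPKM in every group, 9 genes have a mean of at least 1 FPKM, and the genes on the right have libraries at 0, drawn at 0.01.

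The most abundant member was LOC113817647, described as a subunit of the RISC-loading complex like TARBP2, which carries the symbol loqs (loquacious, the partner of Dicer-1 in Drosophila) in RefSeq. Its level was 98.4, 113 and 106 FPKM in control females, 101 and 100.3 in control males, 93.7, 112 and 118 in Vibrio females, and 111, 102 and 111 in Vibrio males. The 3 Vibrio males lay just above both control males in FPKM, and every other pair of groups overlapped. The gene stood above 96.3% of the 18803 genes. Its mean was 106.1 ± 7.54 FPKM (SD, n = 11). It was also among the steadiest genes: the coefficient of variation of its CPM (the count relative to the TMM-adjusted total of its library) was 7.89%, and 1.04% of the 10217 genes tested with a mean of at least 1 FPKM had a lower one. The median over those genes was 26.7%. In CPM the control males, at 491 and 587, lay on both sides of the Vibrio males at 519 to 553. The separation of these groups thus held in FPKM only.

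Argonaute proteins hold the small RNA and carry out the silencing. The table named 7 argonaute genes outside the PIWI branch, and most of their summed FPKM came from 3 of them. LOC113827566, named protein argonaute-3-like, led with 13.9, 15.8 and 10.7 FPKM in control females, 13.6 and 19.8 in control males, 15.3, 14.5 and 12.1 in Vibrio females, and 19.98, 20.7 and 14.4 in Vibrio males. Its 3 highest values came from male libraries, yet the ranges of the sexes overlapped. LOC113806880, named argonaute 2, the branch that uses small interfering RNAs in insects, measured 8.20, 10.4 and 7.24 FPKM in control females, 8.24 and 12.4 in control males, 10.99, 8.65 and 18.7 in Vibrio females, and 12.1, 12.7 and 8.64 in Vibrio males. The value of 18.7 in Vibrio female 3 stood apart, and the other 10 libraries lay between 7.24 and 12.7.

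The pair of argonaute genes highest in FPKM kept an almost fixed ratio in 10 of the 11 libraries. The FPKM of argonaute-3-like LOC113827566 divided by that of argonaute 2 LOC113806880 was 1.39 to 1.69 in those libraries and 0.648 in Vibrio female 3. In that library argonaute 2 was at its highest level, and LOC113827566 at 12.1 FPKM was near the low end of its range. Over the 11 libraries the correlation of their log2 CPM was r = 0.206 and rho = 0.455, and r was 0.908 without Vibrio female 3 and Vibrio male 2, the libraries farthest from the median of LOC113827566. The points share their libraries and depth. LOC113827566 supplied a median of 54.7% of the summed argonaute FPKM (range 28.2 to 58.7%), and argonaute 2 LOC113806880 supplied 35.5% (32.6 to 43.5%). The sum itself ran from 20.2 FPKM in control female 3 to 43.1 FPKM in Vibrio female 3.

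**Figure D2:**
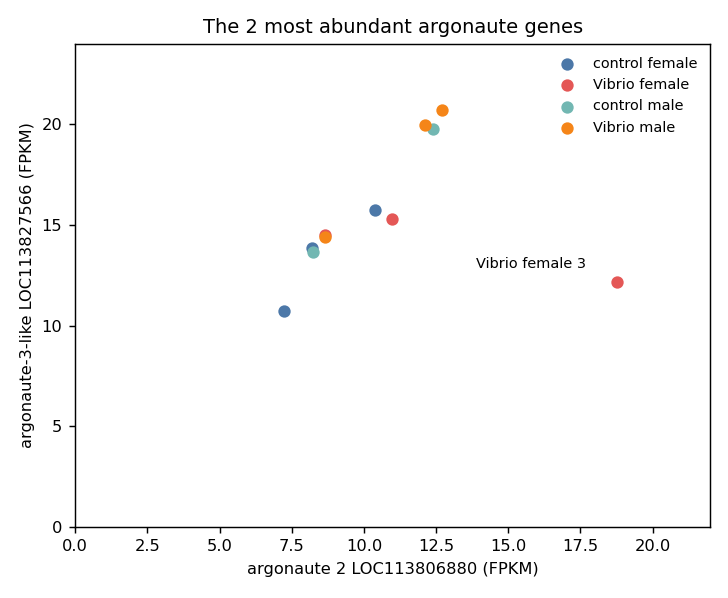
FPKM of argonaute-3-like LOC113827566 (vertical axis) against argonaute 2 LOC113806880 (horizontal axis), with 1 point per library, coloured by group. In 10 libraries the ratio lies between 1.39 and 1.69, and Vibrio female 3 lies apart at 0.648.

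AGO1 (LOC113821506), the argonaute that carries microRNAs in insects, was lower in FPKM and the least steady of the expressed genes. It measured 2.67, 2.20 and 1.91 FPKM in control females, 1.01 and 1.48 in control males, 1.82, 1.43 and 8.27 in Vibrio females, and 2.29, 1.54 and 2.98 in Vibrio males. Vibrio female 3 alone was high, at 2.78 times the next library, and both control males were at the low end. The coefficient of variation of its CPM was 74.8%, above that of 93.1% of genes. AGO1 supplied a median of 6.52% of the summed argonaute FPKM and 19.2% in its highest library.

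Dcr-1, Dcr-2 and drosha, all ribonuclease III genes, were close to each other in FPKM. Dcr-1 (LOC113811787), described as Dicer-like, had 3.28, 3.47 and 2.20 FPKM in control females, 1.94 and 3.58 in control males, 2.40, 2.28 and 4.80 in Vibrio females, and 3.21, 2.49 and 3.84 in Vibrio males. Dcr-2 (LOC113800785), which carries the same description, had 2.04, 2.74 and 1.39 FPKM in control females, 1.76 and 1.997 in control males, 1.63, 1.83 and 3.77 in Vibrio females, and 3.09, 2.53 and 2.41 in Vibrio males. Both were highest in Vibrio female 3, and their ratio stayed between 0.983 and 1.791 with a median of 1.271. LOC113825476, described as ribonuclease 3-like and listed as drosha, the nuclear enzyme that trims microRNA precursors, had 3.81, 2.77 and 3.01 FPKM in control females, 1.66 and 2.63 in control males, 2.88, 2.35 and 3.41 in Vibrio females, and 2.51, 2.85 and 3.77 in Vibrio males. It was lowest in control male 2, where Dcr-1 and AGO1 were lowest too.

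Not every step in this order held library by library. loqs exceeded LOC113827566 in 11 of 11 libraries, LOC113827566 exceeded argonaute 2 in 10 of 11, and argonaute 2 exceeded Dcr-1 in 11 of 11. Dcr-1 exceeded drosha in only 6 of 11 libraries, with means of 3.04 ± 0.866 and 2.88 ± 0.627 FPKM (SD, n = 11), so these neighbours did not differ beyond their spread. The same held for AGO1 at 2.51 ± 1.996 and Dcr-2 at 2.29 ± 0.708 FPKM, where AGO1 was the higher in 5 of 11. Drosha exceeded AGO1 in 10 of 11, and Dcr-2 exceeded the PIWI gene AGO3 in 11 of 11. This order holds for FPKM and rests on unequal lengths. Counts and FPKM imply 0.88 kb for argonaute 2 LOC113806880, 2.28 for LOC113827566, 4.61 for AGO1 and 14.68 for Dcr-1. By mean CPM loqs was still highest at 534, but Dcr-1 (44.1) and AGO1 (11.3) stood above argonaute 2 LOC113806880 (9.40).

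Both members matched by name only were counted in every library. TARBP1 LOC113807498, in other animals a methyltransferase of RNA rather than a loading factor, ranged from 3.99 to 7.22 FPKM with a mean of 4.76 ± 0.921 (SD, n = 11). The putative ERI1 exoribonuclease 3 LOC113817842 ranged from 7.24 FPKM in Vibrio female 3 to 17.2 in Vibrio female 2, with a mean of 11.9 ± 2.78. Its extremes both lay in the same group.

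Some dicer and argonaute names occurred more than once. Beside Dcr-1 and Dcr-2, there were 2 genes named dicer 2, and their models spanned 2580 and 6015 bases of genome against 34182 for Dcr-1 and 100913 for Dcr-2. The names protein argonaute-3-like and argonaute 2 were also carried by 2 genes each. Where copies are near-identical, the counting could split or misplace their reads, so the levels of these genes are uncertain.

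The low copies were seen in some libraries and had no count in others. Dicer 2 LOC113829289 had 80, 57 and 0 counts in control females, 17 and 102 in control males, 27, 12 and 0 in Vibrio females, and 33, 59 and 0 in Vibrio males. Every group but the control males thus had a library at 0, and the gene overlapped an uncharacterized gene of the same strand. A count of 0 allows up to 3 counts, or 0.0557 to 0.0755 CPM by library, for counting error only. The second dicer 2 gene, LOC113807637, had 3 counts in Vibrio female 3 and none elsewhere. Argonaute 2 LOC113821742 had 0 to 10 counts.

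A second argonaute-3-like gene, LOC113817401, was counted in 3 libraries only. It had 310 counts in control male 3, 207 in Vibrio female 3 and 14 in control male 2, and 0 in the other 8. Argonaute-2-like LOC113808207 was counted in 2 of those libraries, with 47 in control male 3 and 25 in Vibrio female 3. The partial argonaute-3-like model LOC113813332 had 94 counts in Vibrio female 3, 0 in control male 3 and 10 to 33 in the others. The high counts of all 3 genes thus lay in control male 3 or Vibrio female 3.

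The PIWI branch was faint. AGO3 (LOC113824132), which in Drosophila drives the cycle that amplifies piRNAs, was counted in all 11 libraries and ranged from 0.319 FPKM in Vibrio female 2 to 1.04 in control male 3, with a mean of 0.683 ± 0.238 FPKM (SD, n = 11). PIWI-2 LOC113829079 had 3 counts in control male 3 and 0 in every other library. Several genes known for the germline were counted in that library alone: the RNA helicase vasa-like LOC113822687 with 52 counts, a pair of genes for the meiotic recombinase DMC1 with 29 and 19, and tudor domain-containing 5-like with 15. Maelstrom, a piRNA factor, had its highest count there, at 434, against 0 to 267 in the other libraries. Some genes of the same lists did not peak in control male 3. SPO11-like, a meiotic gene, had 0 counts there and 3 or 4 in control female 1, control male 2 and Vibrio females 1 and 2. The helicase spindle-E was counted in 7 libraries, with 11 counts in control male 3 and 13 in Vibrio male 3. Vitellogenin receptor-like had 16 in control male 3 and 178 in Vibrio female 1. Control male 3 also had the most genes of any kind counted in 1 library alone, 354 against 60 to 340 in the others, and the highest hepatopancreas marker share, 0.274%. The summed gonad and germline list of 41 genes was also highest there, at 0.0331% of counts, with control female 2 next at 0.0316%. By group the list took 0.0269 to 0.0316% of counts in control females, 0.0269 to 0.0331% in control males, 0.0284 to 0.0298% in Vibrio females and 0.030 to 0.0311% in Vibrio males, and 9 of its genes were at 0 in control male 3 against 9 to 15 in the other libraries. Of the 41 genes, 3 were counted in control male 3 alone (vasa-like and both DMC1 genes), and 3 others in Vibrio female 1 alone. What part other tissue had in these counts was not tested.

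**Figure D3:**
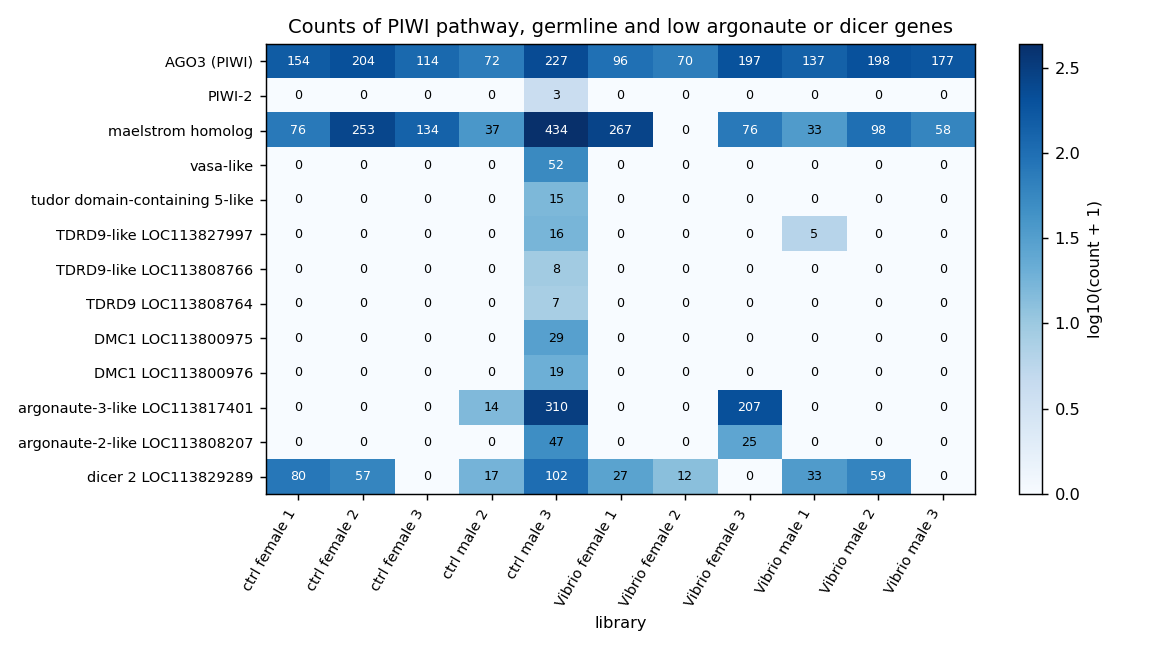
Counts (printed in each cell, shaded by log10 of the count plus 1) of the PIWI branch, selected germline genes and low argonaute and dicer copies in each library. PIWI-2, vasa-like and both DMC1 genes have counts in control male 3 only, and argonaute-3-like LOC113817401 has 310 there and 207 in Vibrio female 3. SPO11-like, spindle-E and vitellogenin receptor-like, which did not peak in control male 3, are not drawn.

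Vibrio was then compared with control within each sex. Of the 17 members, 14 passed the filter on low counts and were tested beside all other genes, 14295 in total, with edgeR's quasi-likelihood test and Benjamini-Hochberg adjustment. In females 0 of the 14 members were called at an adjusted p under 0.05, where the share called over all genes was 0.0%. In males 0 of 14 were called, also against 0.0%, and the difference of the sexes' Vibrio effects called 0 of 14 against 0.0%. Averaged over the sexes, Vibrio against control called 0 of 14 members against 0.0%. At an unadjusted p under 0.05 there were 579, 345, 800 and 289 genes in these comparisons, with 1, 1, 2 and 0 members, and DESeq2 called 25, 15, 27 and 6 genes with 0 members among them.

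Averaged over sexes, the Vibrio effects on the core enzymes and their partner ran from 0.00 to 0.75 on the log2 scale, and the largest fell without 1 library. loqs differed by 0.00 on the log2 scale between Vibrio and control averaged over sexes, with a standard error (SE) of 0.12, and LOC113827566 by 0.05 (SE 0.15). Dcr-1 differed by 0.10 (SE 0.22), drosha by 0.13 (SE 0.18), argonaute 2 LOC113806880 by 0.29 (SE 0.21) and Dcr-2 by 0.31 (SE 0.23). For AGO1 the difference was 0.75 (SE 0.42), the largest of these 7, and it was 0.16 without Vibrio female 3. Argonaute 2 stood at 0.12 without that library. None of the 7 passed the test, with edgeR adjusted p-values of 1.0.

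Among the 7 expressed genes, argonaute 2 LOC113806880 had the smallest p in females. Its group mean was 8.61 ± 1.62 FPKM in control females and 12.8 ± 5.29 in Vibrio females (SD, n = 3 each), a log2 fold change of 0.55 (SE 0.28) with an edgeR adjusted p of 0.986 (unadjusted 0.0800). Without Vibrio female 3 the difference was 0.22. In males the gene stood at 10.3 ± 2.93 FPKM (n = 2) and 11.2 ± 2.20 (n = 3), a log2 difference of 0.02 (SE 0.32).

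For AGO1, 1 library set the direction in females. The means were 2.26 ± 0.388 FPKM in control females and 3.84 ± 3.84 in Vibrio females, a log2 fold change of 0.72 (SE 0.55), and it became −0.45 without Vibrio female 3. In males the means were 1.24 ± 0.330 FPKM (n = 2) and 2.27 ± 0.719 (n = 3), with a log2 difference of 0.77 (SE 0.63). Dcr-2 in males was 1.88 ± 0.168 and 2.68 ± 0.364 FPKM, a log2 difference of 0.40 (SE 0.35), and drosha was 2.14 ± 0.681 and 3.04 ± 0.648 FPKM, a log2 difference of 0.42 (SE 0.26). The edgeR adjusted p was 0.933 or above for every member in males.

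By the plainer measure of groups whose libraries did not overlap in CPM, females with and without Vibrio were separated for 0 of 14 members, where 6.38% of all genes tested were. In males 5 of 14 members were separated, against 24.8% of all genes. AGO1, Dcr-2 and the partial argonaute-3-like LOC113813332 were higher in all 3 Vibrio males than in both control males. ERI1 exoribonuclease 3 LOC113817842 and argonaute-3-like LOC113817401 were lower. The comparison rests on 2 control males, and LOC113817401 had 0 counts in all 3 Vibrio males. No fold is given for it, because a fitted fold against libraries at 0 depends on the prior count. It was the member with an unadjusted edgeR p under 0.05 in both Vibrio comparisons within a sex. For the difference of the sexes' Vibrio effects its unadjusted p was 0.0104, and 0.0324 for argonaute-2-like LOC113808207, with an adjusted p of 0.74 for both.

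Among the 7 expressed genes, the difference of the Vibrio effects, males minus females, ran from −0.53 (SE 0.42) for argonaute 2 LOC113806880 to 0.59 (SE 0.35) for drosha on the log2 scale. Neither passed the test, and the smallest edgeR adjusted p among the 7 was 0.74.

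**Figure D4:**
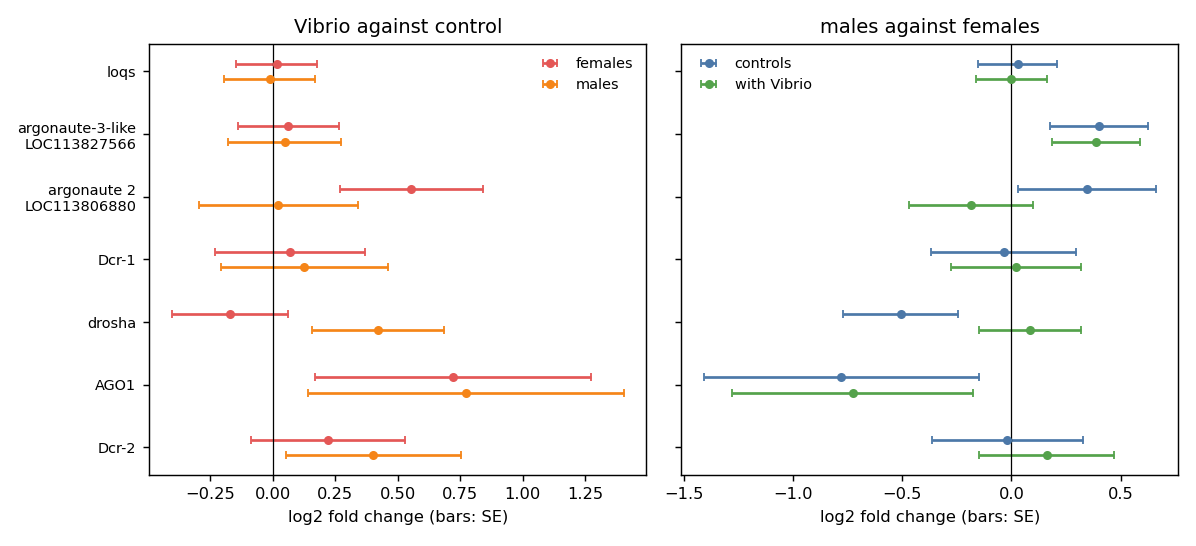
Log2 fold changes (points) with SE (bars) of 7 expressed RNA interference genes, for Vibrio against control in each sex (left) and males against females within controls and with Vibrio (right). AGO1 has the widest bars, and argonaute-3-like LOC113827566 has 0.40 and 0.39 in males against females.

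Males were compared with females in the same fit. In controls 0 of 14 members were called against 0.0% of all genes, with Vibrio 0 of 14 against 0.0%, and averaged over agents 0 of 14 against 0.0%. At an unadjusted p under 0.05 there were 698, 486 and 476 genes, with 1 member in each comparison, and DESeq2 called 12, 17 and 11 genes and 0 members. In controls and with Vibrio that member was argonaute-3-like LOC113817401, counted in 3 libraries only. Its unadjusted edgeR p was 0.0350 in controls and 0.0485 with Vibrio, and neither passed after adjustment.

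Between the sexes in controls, drosha had the smallest p of the expressed members (unadjusted edgeR p 0.0830). Argonaute-3-like LOC113827566 had the smallest with Vibrio and averaged over agents. Its means were 13.5 ± 2.55 FPKM in control females and 16.7 ± 4.32 in control males, and 14.0 ± 1.63 in Vibrio females and 18.4 ± 3.46 in Vibrio males. The log2 difference of males against females was 0.40 (SE 0.22) in controls and 0.39 (SE 0.20) with Vibrio. Averaged over agents it was 0.39 (SE 0.15), with an unadjusted p of 0.0256 and an edgeR adjusted p of 0.953, so it did not pass the test. Leaving out any 1 library gave 0.33 to 0.47. The hemocyte marker share was 3.59 to 7.22% of counts in control females and 3.26 to 3.65% in control males. With Vibrio it was 3.14 to 3.76% in females and 3.73 to 4.92% in males. The part of cell makeup in the sex difference of LOC113827566 was not tested.

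Drosha and AGO1 were lower in control males than in control females, without passing the test. Drosha was 3.20 ± 0.547 FPKM in control females and 2.14 ± 0.681 in control males, a log2 difference of −0.51 (SE 0.26, edgeR adjusted p 0.756), and with Vibrio the difference was 0.08 (SE 0.23). AGO1 differed by −0.78 (SE 0.63) in controls and −0.73 (SE 0.55) with Vibrio, and the average of −0.75 became −0.17 without Vibrio female 3. In controls Dcr-1 differed by −0.04 (SE 0.33), loqs by 0.03 (SE 0.18) and the Drosha partner DGCR8-like LOC113823994 by 0.13 (SE 0.33). Dcr-1 differed by −0.01 (SE 0.22), Dcr-2 by 0.07 (SE 0.23) and loqs by 0.01 (SE 0.12) averaged over agents. For the PIWI gene AGO3 the averaged difference was 0.28 (SE 0.32).

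Control males and control females did not overlap in CPM for 6 of 14 members, against 21.3% of all genes. LOC113827566, ERI1 exoribonuclease 3 and argonaute-3-like LOC113817401 were higher in control males, and drosha, AGO1 and LOC113813332 were lower. With Vibrio, 0 of 14 members separated the sexes, against 7.76% of all genes. This comparison shares its control males with the Vibrio comparison in males, and AGO1, ERI1 exoribonuclease 3, LOC113817401 and LOC113813332 appear in both.

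Vibrio female 3 was set apart for more members than any other library. Of the 7 expressed RNA interference genes, 4 had their highest CPM there (argonaute 2 LOC113806880, Dcr-1, AGO1 and Dcr-2), beside 20.8% of all genes compared. LOC113827566 had its lowest CPM there, as did 17.7% of all genes compared. AGO1 deviated by 2.02 on the log2 scale from the median of the other libraries, and the SD of such deviations over all genes in that library was 0.825. Argonaute 2 deviated by 0.88, Dcr-2 by 0.82 and Dcr-1 by 0.70. Control male 2 had the lowest CPM for 3 of the 7 (Dcr-1, drosha and AGO1), where 11.6% of genes were lowest. That library also had the fewest counts, 39733829, and 20.2% of genes, loqs among them, were highest there.

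Some partners chosen after their values were seen had the same library highest. Gawky-like LOC113809688, the GW182 protein that joins argonaute to the decay machinery, had 15.8 FPKM in Vibrio female 3, 11.4 in control female 1 and 4.06 to 7.72 in the others. The partial CCR4-NOT subunit 6-like model LOC113821298, part of a complex that shortens poly(A) tails, had 23.5 FPKM there against 12.3 in the next library. SID1 family member 1-like LOC113808226, related to the worm channel that takes up double-stranded RNA, had 11.7 FPKM there against 6.15 in the next. The microprocessor partner DGCR8-like LOC113823994 went the other way, with its lowest level, 2.62 FPKM, in that library and a mean of 4.55. By CPM, 8 of 42 pathway genes with a mean of at least 1 FPKM were highest in Vibrio female 3, close to the 20.8% of all genes compared. In control male 2, 8 of the 42 were lowest, where 11.6% of all genes compared were. Vibrio female 3 had a hepatopancreas marker share of 0.190% of counts, below control male 3 at 0.274% and Vibrio female 1 at 0.203%, and the part of cell makeup in its pattern was not tested.

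**Figure D5:**
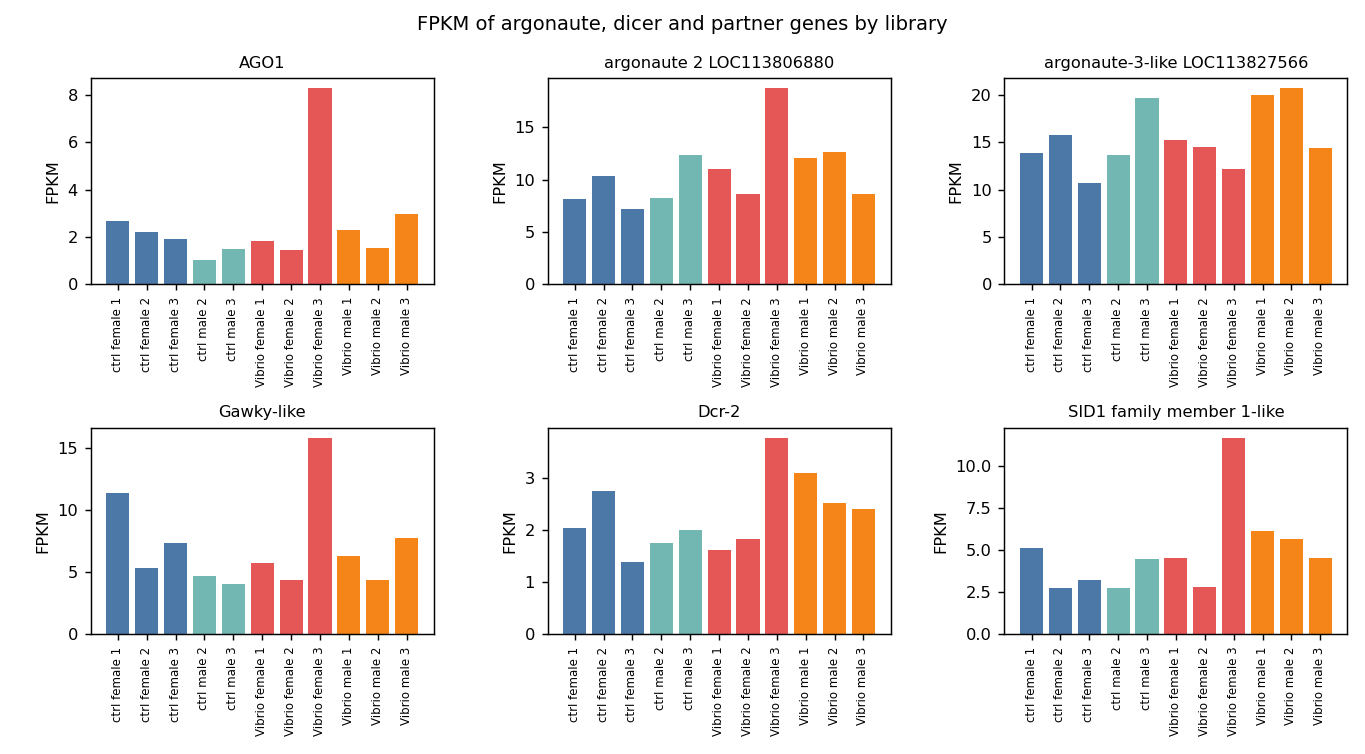
FPKM (bars from 0) of 4 RNA interference genes and 2 partner genes in each of the 11 libraries, coloured by group. AGO1 reaches 8.27 FPKM and Gawky-like 15.8 in Vibrio female 3, where argonaute-3-like LOC113827566 is at 12.1.

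Partner genes were read from 4 lists taken by name. Of 5 microRNA and small interfering RNA processing partners 5 were tested, of 27 cofactors of the silencing complex 27, of 13 piRNA partners 7, and of 8 genes for uptake, editing and sensing of double-stranded RNA 7. In each of the 7 comparisons edgeR called 0 genes of every list, in either direction. For Vibrio against control averaged over sexes, the median log2 fold change was 0.02 in the processing partners, −0.03 in the cofactors, −0.04 in the piRNA partners and −0.04 in the uptake and editing genes, beside −0.02 over all genes tested. For males against females averaged over agents, the medians were −0.21, −0.04, −0.04 and 0.13, beside −0.04 over all genes.

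The most abundant partner of each list was well above the dicers. The homolog of serrate, which helps to present microRNA precursors, averaged 73.9 FPKM, and a gene for staphylococcal nuclease domain-containing protein 1 (tudor-SN, a nuclease found with the silencing complex) averaged 103 FPKM. Tudor domain-containing 7-like averaged 15.5 FPKM. The editase 1-like gene LOC113818471, named for adenosine deamination in double-stranded RNA, was the most abundant of all, with 684 FPKM and a range of 400 to 981. It was lowest in control female 1 and highest in control male 2.

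A few partners had an unadjusted p under 0.05 and none passed the test. CCR4-NOT subunit 6-like LOC113815168 and the poly(A) nuclease Pan2-like LOC113805584 had log2 differences of 0.63 (SE 0.24) and 1.01 (SE 0.40) between the Vibrio effects of males and females, with unadjusted edgeR p-values of 0.0237 and 0.0301 and an adjusted p of 0.74. The helicase mov-10-B.1 LOC113825628 was 0.68 (SE 0.31) higher in control males than control females on the log2 scale (unadjusted p 0.0495, edgeR adjusted 0.756). In the same comparison Pan2-like LOC113805584 differed by −0.68 (SE 0.30), with an unadjusted p of 0.0487 and an edgeR adjusted p of 0.756. The Adar-like editase LOC113811198 was 0.46 (SE 0.20) higher in males with Vibrio than in females with Vibrio (unadjusted p 0.0395, edgeR adjusted 1.0).

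Likeness of pattern was described for the most abundant argonaute and dicer genes, as Pearson r of log2 CPM over the 11 libraries, among 6532 genes with a descriptive name. The genes most like argonaute-3-like LOC113827566 were MALT1-like at 0.891, receptor-interacting kinase 1-like at 0.878, gephyrin-like at 0.873, MON1 homolog A-like at 0.866 and CLIP domain-containing serine protease 2-like at 0.861. Their rho was 0.782 to 0.873, and r was 0.722 to 0.839 without Vibrio female 3 and Vibrio male 2. For Dcr-1 they were U1 small nuclear ribonucleoprotein 70 kDa-like at 0.948, BRWD3-like at 0.935, rBAT-like at 0.933, ATR-like at 0.927 and vav-like at 0.927. Their rho was 0.836 to 0.936, and r was 0.853 to 0.933 without Vibrio female 3 and control male 2. The libraries share depth and makeup, and with 6532 genes searched the highest values are a ranking and not a test.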

How the data were processed

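RNA from 11 hemocyte libraries was sequenced by the authors. Their deposited table gives, for each gene, raw counts per gene and FPKM in each library; the deposited counts are whole numbers with a different total in each library. Cutadapt 1.9 and FastQC are named in the submitters' processing notes; an aligner, a counting program and a genome build were not given in the sources used here. Strand use is not stated, so reads of overlapping or antisense genes cannot be told apart, and no coordinates are printed. Among counts of 1 to 20, 61.3 to 68.2% were even, so counts are not independent fragments, and limits from a count of 0 may be too low.

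Symbols came from RefSeq's table by identifier, which matched 11 of the 17 members and 12909 of 18803 genes. The build of that table may differ.

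Counts were fitted with edgeR 4.0.16 (R 4.3.3, limma 3.58.1): filterByExpr, TMM scaling, and a robust quasi-likelihood model of all 11 libraries with 4 group means, so that control males, with 2 libraries, share the others' spread. There were 7 contrasts, two-sided, with Benjamini-Hochberg adjustment over 14295 genes and calls at 0.05. SEs were taken from the fold change and the square root of its F statistic. The fit was tested on simulated data. Alternatives were RLE size factors, no filter, DESeq2 1.42.0, a replicate block, leaving out each library, and leaving out the 3 libraries highest in hepatopancreas markers.

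Genes were named by rule: every member; members with a mean of at least 1 FPKM by library; of each partner list the most abundant gene and up to 3 genes with an unadjusted p under 0.05; and the 5 genes most like the leading argonaute and dicer genes. Any further gene was picked once its values were known. Members and lists were chosen with earlier results of these data known.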

Additional observations from a re-analysis of the deposited data

How the results depend on the processing

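Across 19 log2 fold changes of members followed under 16 alternatives, 276 of 304 refits kept their direction, 28 reversed and 0 were called (smallest adjusted p 0.39). The main counts of genes called by edgeR were 0 in all 7 comparisons. DESeq2 called 25 genes for Vibrio in females, 15 in males, 27 for the difference of these effects, 12 for sex in controls, 17 for sex with Vibrio, 6 for Vibrio averaged over sexes and 11 for sex averaged over agents. The fit without the 3 libraries highest in hepatopancreas markers (control male 3, Vibrio female 1 and Vibrio female 3) kept 1 control male and 1 Vibrio female. Its calls are therefore not given. Leaving out either control male also leaves 1 library in that group, which limits the range that follows. Leaving out 1 library gave 0 to 1 calls in the first 5 comparisons and 0 to 2 in both averaged ones. Whether same-numbered libraries were paired was not settled: r exceeded 0.1 in 5 of 15 such pairs (range −0.574 to 0.498). Pairs with different numbers ran from −0.498 to 0.479. The 2 control males mirror each other about their mean, so their r values are not independent. The replicate block called 0 genes in every comparison. Reversals concerned values near 0, apart from AGO1. For loqs the averaged Vibrio difference, 0.00143, became −0.000165 with RLE size factors and −3.53e-05 with DESeq2, with a range of −0.0486 to 0.0698 when 1 library was left out. Its averaged sex difference, 0.0139, became −0.00962 with the replicate block and −0.0015 without those 3 libraries (range −0.0544 to 0.0894 when 1 library was left out). The Dcr-1 sex difference was −0.00733 and 0.0129 with no filter (range −0.163 to 0.184), and its Vibrio difference ranged from −0.094 to 0.277. The averaged Vibrio difference of argonaute-3-like LOC113827566 ranged from −0.0136 to 0.144, the sex difference of argonaute 2 LOC113806880 from −0.0136 to 0.248, and that of Dcr-2 from −0.0357 to 0.283. AGO1 for Vibrio in females, 0.72, ranged from −0.447 to 1.1. It was −0.567 without those 3 libraries, where Vibrio female 2 alone stands for its group. The cause was not tested. Depth limits the members with few counts, because 3 counts or fewer cannot be told from 0. These were PIWI-2 and dicer 2 LOC113807637, with 3 counts at most, and argonaute 2 LOC113821742, with 0 to 10. It limits AGO3 less, which was also under 1 FPKM but had 70 to 227 counts.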
